A study of Homo sapiens with 12 samples.

Results

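In the human hepatocellular carcinoma line HepG2, some of the strongest peaks of the transcription factor FoxK1 lie near the starts of a few genes. These genes are HBP1, OSER1, CCNE2, EXOSC5, BCKDHA, SNX29, ERLEC1 and YIPF4. They are 8 genes at 7 sites, since EXOSC5 and BCKDHA start from 1 divergent promoter. The sites were chosen by the measured values: all 6 peak lists together gave 68127 regions, of which 15887 were called in every library. Regions were ordered by the mean, over the lists, of their percentile of −log10 q (the significance of a peak after adjustment within its list). Of the 10 highest, 7 lay near a start of these genes. A peak was assigned to a gene when its summit was within 3 kb of the given start. Of the 223205 peaks in the lists, 52 met that rule. Chromatin immunoprecipitation with a FoxK1 antibody was followed by sequencing in 3 libraries of insulin-treated cells (100 nM for 20 min) and 3 of untreated cells. All cells had been kept without serum for 16 h, and cross-linked with formaldehyde. The 6 input libraries were not analysed here. Nothing in the labels ties the replicates to different cultures, and each p-value here is therefore set against a spread between libraries that may be technical.

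FoxK1 is a forkhead (winged-helix) transcription factor that binds DNA through letters related to GTAAACA and can repress transcription together with the Sin3 corepressor. Insulin signalling through AKT and mTOR is known to move FoxK1 into the nucleus, the opposite of its effect on the FoxO forkhead factors. FoxK1 has been linked to autophagy genes in fasting, to glycolysis and to lipid metabolism in liver cells. The 8 genes have varied roles. HBP1 is an HMG-box repressor that restrains the cell cycle, cyclin E2 (CCNE2) activates CDK2 at the start of DNA replication, and OSER1 is a serine-rich protein induced by oxidative stress. EXOSC5 is a subunit of the RNA exosome, which degrades and trims RNA, and BCKDHA is the E1 alpha subunit of the branched-chain keto acid dehydrogenase of valine, leucine and isoleucine breakdown. SNX29 is a sorting nexin, ERLEC1 a lectin of the endoplasmic reticulum that takes part in disposal of misfolded glycoproteins, and YIPF4 a membrane protein of the Golgi.

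Promoter windows of 7 of the 8 genes matched by symbol in a RefSeq table on GRCh38.p14, and CCNE2 did not. A window runs from 250 bases before to 50 bases after a start. The 6-letter forkhead core GTAAAC, or GTTTAC on the other strand, was present at 4 of these 7 genes. That was 4 of their 8 windows, beside 7.20% of all 35116 windows. It was searched after the 7-letter form TGTTTAC, read as GTAAACA on the other strand, which contains it and which matched HBP1 and YIPF4 and 3.42% of all windows. The 250 bases upstream of the start are shown for those 4 genes, 5′ to 3′ on the strand of the gene, with the core in capitals. They are chr19:41397360-41397609 on the minus strand for EXOSC5, chr16:11976484-11976733 on the plus strand for SNX29, chr2:32277654-32277903 on the plus strand for YIPF4, and chr7:107168753-107169002 on the plus strand for HBP1, all on GRCh38.p14.
EXOSC5: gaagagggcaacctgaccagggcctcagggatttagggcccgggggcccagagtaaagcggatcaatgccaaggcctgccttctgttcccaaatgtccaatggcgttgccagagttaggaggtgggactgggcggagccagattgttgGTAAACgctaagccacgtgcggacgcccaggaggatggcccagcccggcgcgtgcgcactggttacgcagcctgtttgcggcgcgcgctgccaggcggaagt
SNX29: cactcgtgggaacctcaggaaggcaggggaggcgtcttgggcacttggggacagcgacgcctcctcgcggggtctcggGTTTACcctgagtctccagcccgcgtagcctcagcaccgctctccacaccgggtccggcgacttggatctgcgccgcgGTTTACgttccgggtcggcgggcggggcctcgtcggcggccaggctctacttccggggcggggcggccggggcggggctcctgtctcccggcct
YIPF4: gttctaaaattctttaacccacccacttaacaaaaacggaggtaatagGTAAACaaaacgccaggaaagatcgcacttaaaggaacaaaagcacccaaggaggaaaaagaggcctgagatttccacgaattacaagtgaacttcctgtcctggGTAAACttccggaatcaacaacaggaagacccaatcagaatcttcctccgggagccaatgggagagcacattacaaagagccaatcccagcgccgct
HBP1: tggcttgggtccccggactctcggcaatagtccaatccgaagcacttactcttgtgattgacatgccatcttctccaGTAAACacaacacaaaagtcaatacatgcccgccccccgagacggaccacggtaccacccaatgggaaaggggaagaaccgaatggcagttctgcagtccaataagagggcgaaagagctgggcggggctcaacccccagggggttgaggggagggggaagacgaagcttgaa
Counted upstream from the RefSeq start, the EXOSC5 core lay at 97 to 102 bases, those of SNX29 at 89 to 94 and at 167 to 172, those of YIPF4 at 92 to 97 and at 197 to 202, and that of HBP1 at 168 to 173. The base after GTAAAC differed between genes: A at HBP1 and at the distal YIPF4 match, G at EXOSC5, C at both SNX29 matches and T at the proximal YIPF4 match. HBP1 had 2 windows whose starts were 921 bp apart, and the other one held no core. A match is a description of these letters, not a binding site. The windows were placed by RefSeq starts and not by summits. From the hg19 starts, summits lay 316 to 344 bp upstream of HBP1, 333 to 336 bp upstream of BCKDHA and 60 to 63 bp downstream of ERLEC1. These distances are beyond the reach of a window, so a window with or without the core need not hold the summit.

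Other promoter letters were searched on both strands of the same windows. GGGCGG, the GC box of SP and KLF factors, was present for 5 of the 7 genes and in 45.0% of all windows. CCAAT, the NF-Y box, was present for 4 genes (BCKDHA, EXOSC5, HBP1 and YIPF4) and in 34.6% of all windows. CCGGAAG, an ETS sequence, was present for ERLEC1, SNX29 and YIPF4 and in 10.3% of windows, and AAGATGGC, a YY1 sequence, for BCKDHA and HBP1 and in 2.89% of windows. At YIPF4 the ETS letters, read on the other strand as CTTCCGG, lay 86 to 92 bases upstream and overlapped the proximal GTAAAC. TTGTTTAC, which contains the 7-letter form, matched YIPF4 alone and 0.954% of all windows. GCGCATGC (NRF1), TTCCCGC and TTTGGCGC (E2F), TGACGTCA and the TGACGT it contains (CRE), TCTCGCGA and the TATA box TATAAA matched 0 of the 7 genes. The shares of all windows for these letters were 3.05%, 6.55%, 0.652%, 1.85%, 7.98%, 1.15% and 11.5% in that order. The GC content of the members' windows was between 48.3% (YIPF4) and 73.7% (SNX29), around the median of 58.7% over all windows. Their observed-to-expected CpG ratio was 0.628 (YIPF4) to 1.07 (ERLEC1), with a median of 0.579 over all windows.

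The libraries differed in depth and the peak lists give no total read number, so the depth is known only through the peaks. The lists held 27503 to 48208 peaks with insulin and 26082 to 44687 without. The fold, which is the authors' ratio of a summit over the background that the peak caller estimated there, had a list median of 4.78 to 5.95 with insulin and 4.18 to 4.65 without. A summit's number of fragments was solved from its deposited fold and its −log10 p. With insulin, the median shared region had 60, 82 and 29 fragments in replicates 1, 2 and 3, and without insulin 87, 51 and 29. Both replicate 3 libraries were thus the lowest of their treatment. Values below are given in that order of libraries, insulin 1, 2 and 3 and then untreated 1, 2 and 3, and counting error alone is covered by the counting SDs given.

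All 7 sites had a peak in all 6 libraries, as the choice required. Coordinates here are on hg19, the build of the lists. The merged regions were chr7:106808095-106810684 (HBP1), chr8:95907247-95909299 (CCNE2), chr20:42838727-42840076 (OSER1), chr19:41902683-41903963 (EXOSC5/BCKDHA), chr16:12070034-12070933 (SNX29), chr2:54013440-54015582 (ERLEC1) and chr2:32502447-32503545 (YIPF4). The site just inside the 10 highest was OSER1, at a mean percentile of 99.9663. The regions just outside were chr8:124553036-124554036 at 99.9635, chr6:53412214-53413376 at 99.9623 and chr17:58754212-58755769 at 99.9618, so the values run on across the limit. The HBP1 site had 0 other shared regions within 100 kb. The EXOSC5/BCKDHA site had 7 others and the remaining 5 sites 2 or 3, beside a median of 3 for all shared regions.

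At HBP1 the fold was 122, 164 and 87.6 with insulin and 95.3, 69.4 and 73.1 without. This was the highest fold of the 7 sites in 5 of 6 libraries and ranked between 1 and 5 in every whole list. The summit held 992, 1534 and 364 fragments with insulin and 1292, 734 and 320 without. Fragment numbers of the treatments overlapped, and both replicate 3 libraries were the lowest. The HBP1 peak was also the widest of the 7 sites in all 6 libraries, at 1819 to 2573 bp, and covered the start in all 6. Its summit lay upstream of the start, 329, 327 and 342 bp with insulin and 344, 338 and 316 bp without, a range of 28 bp.

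At CCNE2 the fold was 91.5, 125 and 68.1 with insulin and 62.7, 56.6 and 64.0 without. The summit held 698, 1028 and 265 fragments with insulin and 951, 631 and 280 without, the lowest number of the 7 sites in 5 of 6 libraries. The fold ranked higher among the sites than the fragments did, and CCNE2 had 1 of the 2 lowest backgrounds in all 6 libraries, as HBP1 had in 5. CCNE2 was the site farthest from its start. The summit lay 877 to 879 bp to the low-coordinate side in every library, which for this gene, transcribed from the minus strand, is inside the gene. Peak width was 1178, 1864 and 1010 bp with insulin and 2047, 1965 and 1049 bp without. The wide peaks of insulin 2 and untreated 1 and 2 covered the start, and the 3 others ended 459 to 531 bp short of it, so the peak covered it in 3 of 6 libraries.

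At OSER1 the fold was 67.7, 68.6 and 50.3 with insulin and 30.5, 21.9 and 35.3 without. The summit held 920, 1201 and 317 fragments with insulin and 1042, 563 and 302 without. By −log10 q OSER1 ranked 8 to 21 in the lists, and by fold 26 to 134. In replicates 1 and 2 it was the site whose ranks by the 2 measures differed most, whereas in replicate 3 this was SNX29. Its background was the highest of the sites in replicates 1 and 2 of both treatments, at 2.74 to 3.91 times the list median. The OSER1 summit was the most fixed in place, 196 or 197 bp upstream of the start in all 6 libraries, a range of 1 bp. OSER1 was also the only site with a further peak within 3 kb in every library. That peak was inside the gene, 1833, 1815 and 1775 bp past the start with insulin and 1882, 1838 and 1864 bp without, with folds of 3.54 to 8.82.

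At the EXOSC5/BCKDHA site the fold was 145, 125 and 83.3 with insulin and 68.1, 53.9 and 68.1 without. The summit held 1092, 1527 and 399 fragments with insulin and 1253, 765 and 366 without. It had the most fragments of the 7 sites in 4 libraries, and HBP1 in the other 2. The starts of the genes are 438 bp apart and face away from each other, and the peak covered both in all 6 libraries. The summit was 102 to 105 bp upstream of EXOSC5 and 333 to 336 bp upstream of BCKDHA, nearer to the exosome gene in every library. The EXOSC5 core printed above lies 97 to 102 bases upstream of its RefSeq start. The spacing of the starts is 459 bp in the RefSeq table, 21 bp more than in the hg19 starts, so distances from the 2 sets of starts are not interchangeable.

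At SNX29 the fold was 99.6, 100.7 and 32.8 with insulin and 47.9, 44.8 and 25.5 without. The summit held 1015, 1367 and 361 fragments with insulin and 1259, 761 and 325 without, among the 3 highest of the sites in every library. SNX29 fell to the lowest fold of the 7 sites in both replicate 3 libraries. Its rank by fold in the whole lists was 8 to 18 in replicates 1 and 2 and 96 and 99 in replicate 3. The background there was 2.95 and 3.11 times the list median in replicate 3, and 2.08 to 2.98 times in replicates 1 and 2. Summits were 107 to 109 bp upstream of the hg19 start in all libraries. The SNX29 peak was the narrowest of the 7 sites in all 6 libraries, at 565 to 882 bp, with 565 and 576 bp in replicate 3.

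At ERLEC1 the fold was 99.4, 82.3 and 41.2 with insulin and 39.2, 47.4 and 36.7 without. The summit held 900, 1159 and 295 fragments with insulin and 1045, 673 and 286 without. Of the sites on the plus strand, ERLEC1 alone had its summit downstream of the start, 60 to 63 bp in every library. Peak width was 1089, 1626 and 685 bp with insulin and 1939, 839 and 643 bp without. The widest peaks, of insulin 2 and untreated 1, reached 1253 and 1514 bp past the start. A separate weak peak stood 901, 970 and 907 bp past the start in insulin 1, insulin 3 and untreated 3, with folds of 5.38, 3.17 and 2.57. Untreated 1 also had a weak peak 1146 bp upstream, with a fold of 2.68.

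At YIPF4 the fold was 96.2, 97.1 and 37.6 with insulin and 59.9, 33.7 and 28.5 without. The summit held 921, 1187 and 307 fragments with insulin and 1133, 566 and 320 without. YIPF4 had the least fixed summit of the 7 sites: 61, 61 and 50 bp upstream of the start with insulin and 62, 40 and 25 bp without, a range of 37 bp. The position was alike in insulin 1, insulin 2 and untreated 1 and nearer the start in the other 3. Peak width was 694 to 1045 bp, lowest in both replicate 3 libraries.

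**Figure D1:**
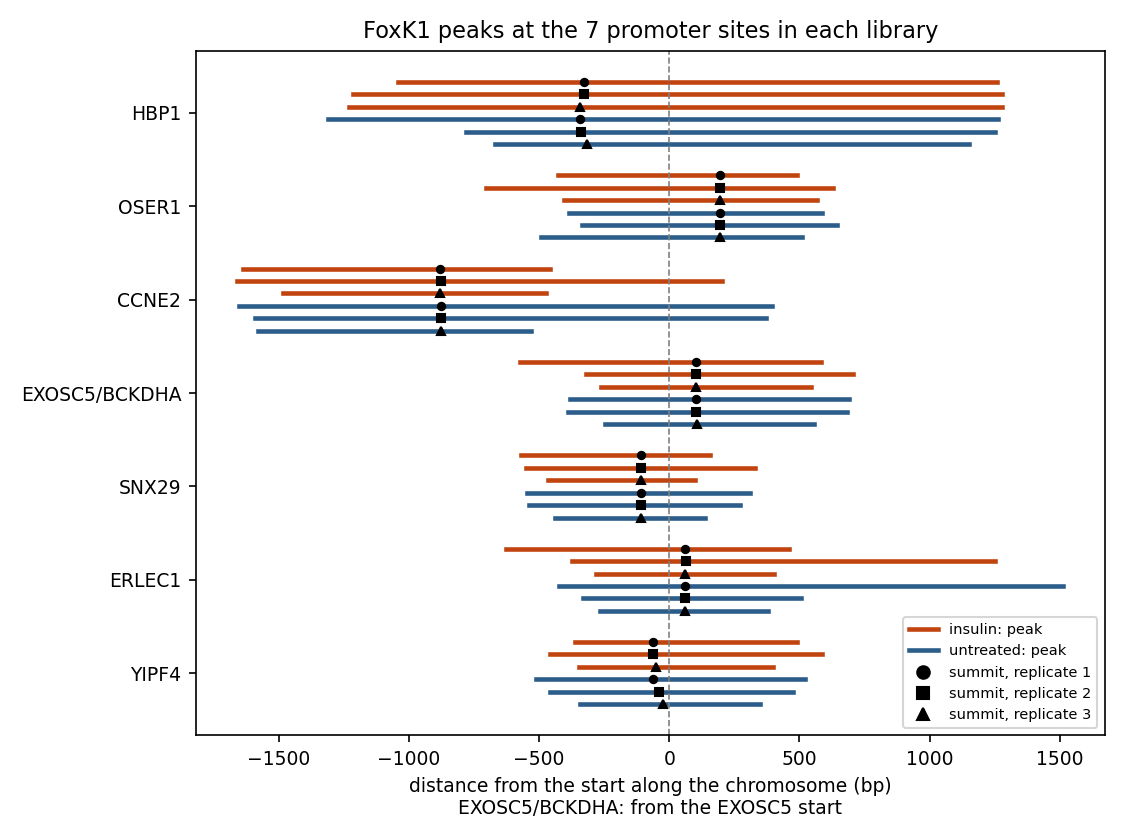
Extent of the FoxK1 peak (bars) and its summit (markers) at each of the 7 sites, as distance in bp from the gene start along the chromosome, 1 bar per library, insulin in orange and untreated in blue. OSER1, EXOSC5 and CCNE2 are on the minus strand, so upstream is to the right for them; the CCNE2 summits are 877 to 879 bp left of the start and the HBP1 peaks are the broadest, up to 2573 bp.

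At 5 of 7 sites the summit came back at almost the same base in separate libraries. Its range over the 6 libraries was 1 bp at OSER1, 2 bp at CCNE2 and SNX29, 3 bp at EXOSC5/BCKDHA and ERLEC1, 28 bp at HBP1 and 37 bp at YIPF4. A range of at most 3 bp was thus found at 5 of 7 sites (71.4%), in 19.0% of the 100 strongest shared regions and in 0.195% of all shared regions. The median range was 3 bp, 14.5 bp and 94 bp in the same order. The 7 sites are themselves part of both larger sets. The sites were chosen by strength, and these 3 sets differ in strength and fragment number, so this is a description with no test. Other regions that ranked above or between the sites by mean percentile had ranges of 2, 7 and 11 bp over the 6 libraries. The regions ranked just below the sites had 38, 3 and 12 bp. A range of at most 3 bp was therefore not limited to the sites of these genes. Position itself was not used in the choice beyond the 3 kb limit. With both replicate 3 libraries left out, the median range of the 7 sites was 1 bp, and a range over fewer libraries cannot be wider by construction.

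**Figure D2:**
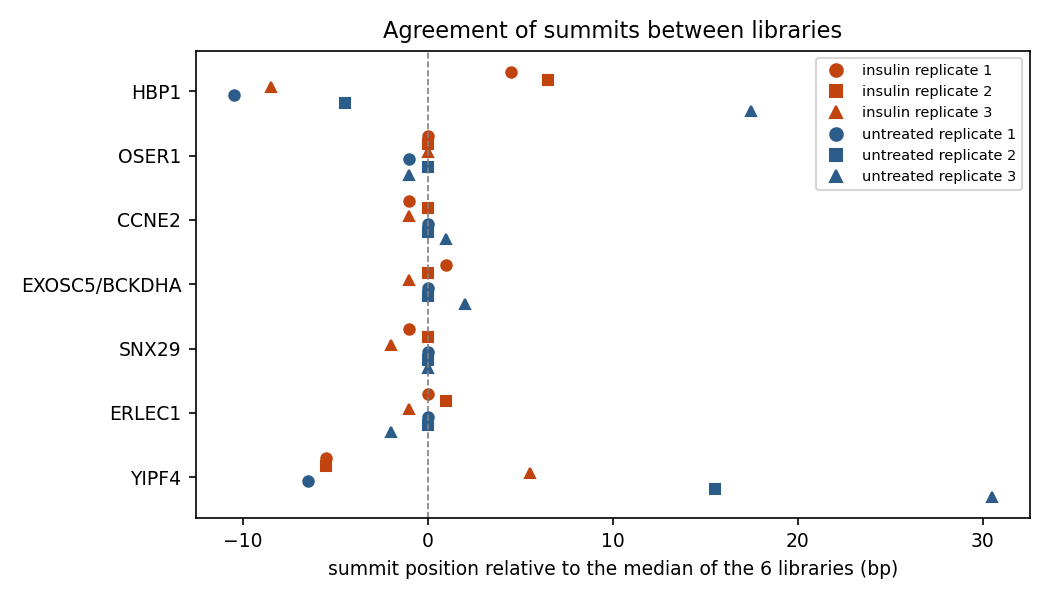
Distance of each library's summit from the median summit of the site (bp), for the 7 sites and 6 libraries, insulin in orange and untreated in blue. The points of OSER1, CCNE2, EXOSC5/BCKDHA, SNX29 and ERLEC1 lie within 3 bp of each other, and those of HBP1 and YIPF4 spread over 28 and 37 bp.

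**Figure D3:**
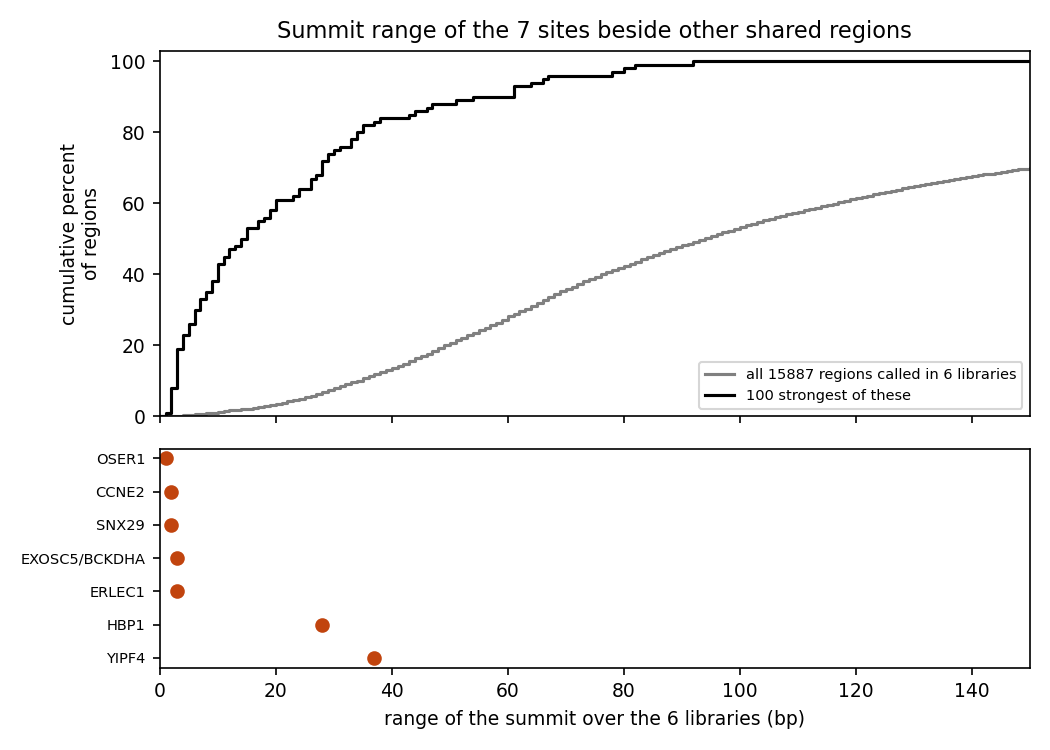
Upper panel, the cumulative percent of regions (vertical axis) whose summit range over the 6 libraries is at most the value on the horizontal axis (bp), for all 15887 shared regions in grey and the 100 strongest in black; the axis ends at 150 bp. Lower panel, the range of each of the 7 sites, of which 5 are at 3 bp or less.

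The 7 sites were close to each other in fragments and less so in fold. Within a library, the site with the most fragments had 1.31 to 1.56 times as many as the site with the fewest. The highest fold was 2.14 to 3.16 times the lowest, and the highest background 1.93 to 3.47 times the lowest. Each site's level was then taken as log2 fragments relative to the mean of the 7 sites in the same library, which does not move with depth. Averaged over the 6 libraries, it was 0.23 ± 0.05 (SD, n = 6) at EXOSC5/BCKDHA, 0.15 ± 0.08 at HBP1 and 0.13 ± 0.05 at SNX29. It was −0.07 ± 0.10 at YIPF4, −0.09 ± 0.08 at OSER1, −0.09 ± 0.07 at ERLEC1 and −0.25 ± 0.12 at CCNE2. In that order SNX29 stood above YIPF4, and ERLEC1 above CCNE2, in 6 of 6 libraries. The other neighbours changed places between libraries, with gaps of at most 0.08. Since the sites were chosen on these signals, their closeness in fragments and their order are descriptions. The background did not keep 1 order of sites. Relative to the list median, that of HBP1, CCNE2 and EXOSC5/BCKDHA was 1.20 to 2.05 in replicates 1 and 2 and 0.85 to 1.18 in replicate 3. That of SNX29 and YIPF4 was 1.86 to 2.98 in replicates 1 and 2 and 2.22 to 3.11 in replicate 3. Its part in the folds of SNX29 and YIPF4 in replicate 3 was not tested.

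**Figure D4:**
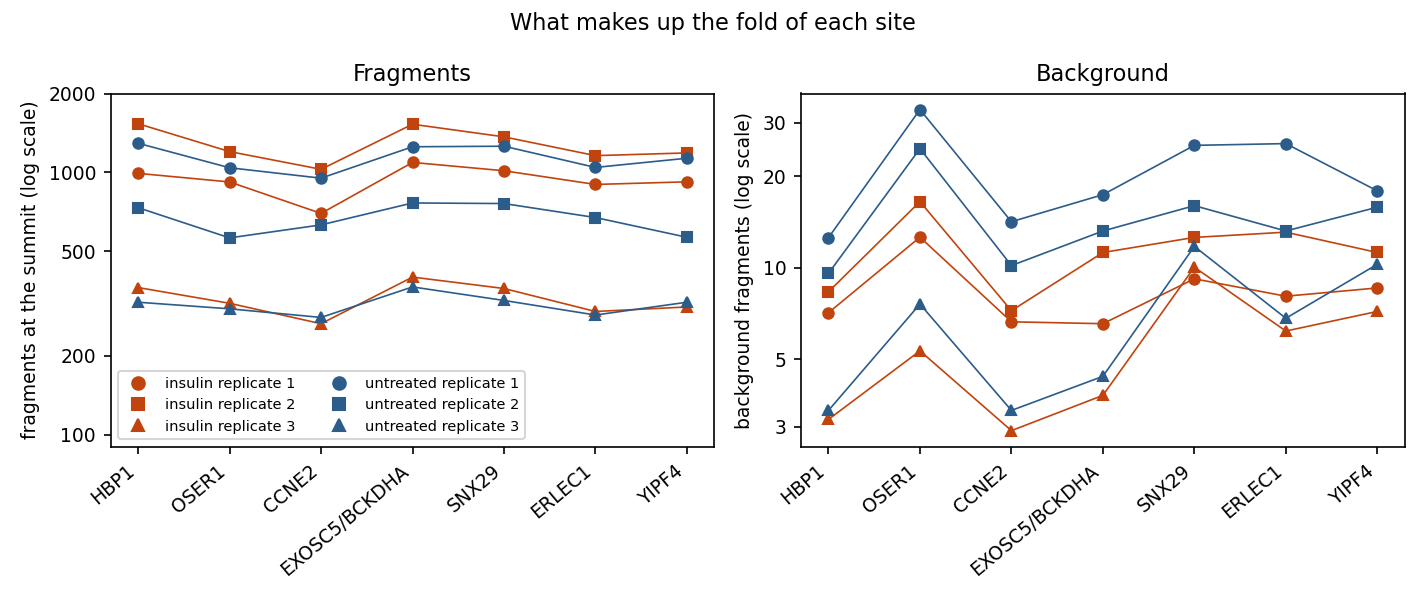
Fragments at the summit (left) and background fragments expected there (right) at the 7 sites, both on log axes, 1 line per library, insulin in orange and untreated in blue. The fragment lines are nearly flat, with a highest-to-lowest ratio of 1.31 to 1.56, while the background lines differ by 1.93 to 3.47 times and have their peak at OSER1 in replicates 1 and 2 and at SNX29 in replicate 3.

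The design compares FoxK1 binding after insulin with that in untreated cells. In the deposited fold, the insulin libraries were all above the untreated ones at OSER1, CCNE2 and EXOSC5/BCKDHA, that is at 3 of 7 sites, beside 34.2% of all shared regions. The list medians of the fold were also all higher with insulin, so this count was read no further. Relative to the mean of the 7 sites, the treatments did not overlap at 2 sites, CCNE2 (lower with insulin) and EXOSC5/BCKDHA (higher), while 10.8% of all shared regions did not overlap on the same scale. Measured against these sites, 0.485% of shared regions stood apart as higher with insulin and 10.3% as lower. Against the median of shared regions these shares were 5.59% and 4.27%, so the split changed with the reference. The median shared region had 29 to 87 fragments in a library and the sites 265 to 1534. The shares are therefore not a like baseline for these sites. An exact permutation test of 3 libraries against 3 cannot go below 0.1, so no site could pass a threshold of 0.05.

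At CCNE2 the level was −0.41, −0.31 and −0.30 with insulin and −0.25, −0.08 and −0.16 without, on the log2 scale relative to the 7 sites. All insulin libraries were below all untreated ones. The means were −0.34 ± 0.06 and −0.16 ± 0.09 (SD, n = 3 each), a log2 difference of −0.18 with a standard error of 0.06 and a two-sided exact permutation p of 0.1, the smallest possible. At EXOSC5/BCKDHA the level was 0.24, 0.26 and 0.29 with insulin and 0.15, 0.20 and 0.23 without, so the lowest insulin value was just above the highest untreated one. The difference was 0.07 with a standard error of 0.03 (exact permutation p = 0.1), a level 1.05 times as high. Counting alone gives the log2 fragment number of a single library an expected SD. As the root mean square over 3 libraries, this was 0.07 in each treatment at CCNE2 and 0.05 and 0.06 at EXOSC5/BCKDHA. The difference was −0.18 at CCNE2, and that of 0.07 at EXOSC5/BCKDHA was little larger than these SDs of single libraries. An SD of a single library is not the error of a difference between means. The counting error of a difference between means was not computed. At the other 5 sites the treatments overlapped, with log2 differences of −0.03 (ERLEC1) to 0.09 (OSER1) and exact permutation p-values of 0.2 to 1. The permutation p-values do not use the replicate numbers as pairs. In such pairs CCNE2 was lower with insulin in 3 of 3, and EXOSC5/BCKDHA and OSER1 were higher in 3 of 3. An exact sign-flip test gave p = 0.25 at each of them, the smallest that test allows. The share of all shared regions that moved one way in 3 of 3 pairs was not computed, so these sites have no background beside them.

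These levels are shares among 7 sites, so a lower value at 1 site raises the rest. Relative to the median of all shared regions, 0 of 7 sites were apart, beside 9.86% of shared regions. The differences on that scale were 0.01 at CCNE2 and between 0.15 (ERLEC1) and 0.28 (OSER1) at the other sites, with standard errors of 0.16 to 0.22 and exact permutation p-values of 0.3 to 0.9. The CCNE2 difference was therefore negative against other strong sites and changed sign against the shared median. Without the library untreated 3, 4 sites were apart on the scale of the 7 sites, OSER1 (higher) and SNX29 (lower) in addition. The same 4 were apart without both replicate 3 libraries. Groups of fewer libraries separate more readily by construction, and the share of shared regions apart in these subsets was not computed.

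**Figure D5:**
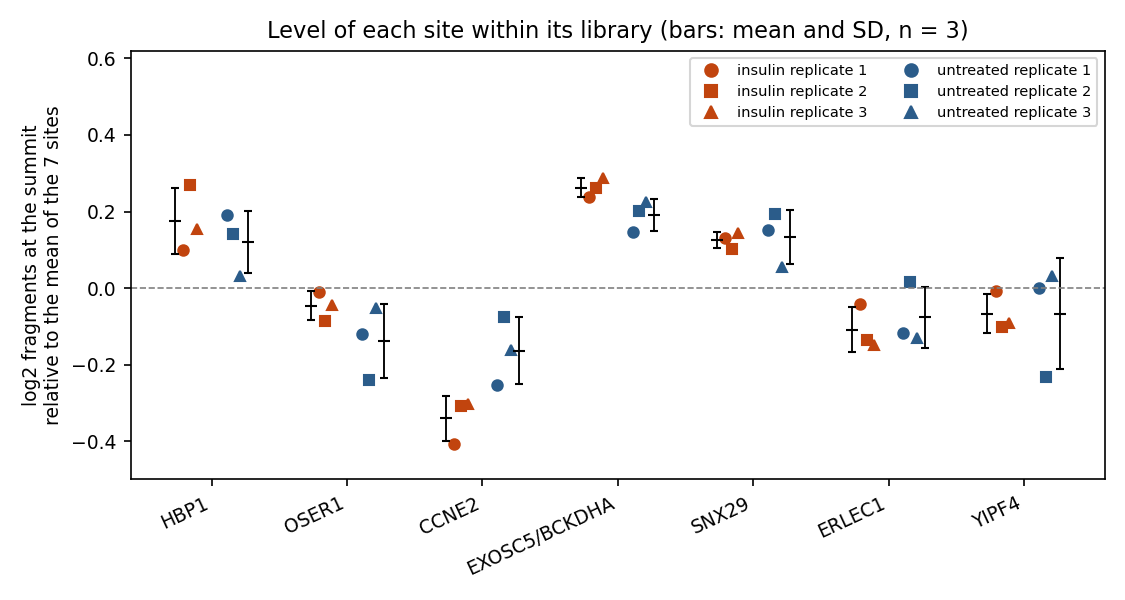
Log2 fragments at the summit relative to the mean of the 7 sites of the same library (vertical axis), for each site and library, insulin in orange and untreated in blue; horizontal ticks and bars are the mean and SD of 3 libraries. The insulin points of CCNE2 lie below all its untreated points and those of EXOSC5/BCKDHA above, and the treatments overlap at the other 5 sites.

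Summit positions of the treatments overlapped at all 7 sites, so 0 of 7 were apart, beside 8.91% of shared regions. At the 5 sites with a range of at most 3 bp the mean positions differed by at most 1 bp (exact permutation p of 0.3 to 0.7). At HBP1 both means were 333 bp upstream, and at YIPF4 the means were 57.3 ± 6.35 bp upstream with insulin and 42.3 ± 18.6 bp without (SD, n = 3 each, exact permutation p = 0.4). Widths overlapped too, at 0 of 7 sites apart beside 5.44% of shared regions. The largest difference was at CCNE2, whose peak was on average 336 bp narrower with insulin (exact permutation p = 0.4). In pairs of the same replicate number it was narrower in 3 of 3, where an exact sign-flip test gave p = 0.25, the smallest it allows. At 5 of 7 sites, all but HBP1 and OSER1, both replicate 3 peaks were narrower than every peak of replicates 1 and 2. The share of all shared regions with this pattern was not computed. It did not hold for the whole lists, whose median width was 474 and 478 bp in replicate 3 and 431 bp in insulin 1.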

How the data were processed

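Data were peak lists of 6 FoxK1 libraries, 3 per treatment; groups and replicate numbers come from the titles. The submitters' processing notes name fastp, Bowtie2, SAMtools, MACS2 and hg19; their versions, roles and order were not given, nor were a control or a threshold. The authors called peaks library by library, as the peak names in the deposited lists show. The deposited fold is a linear ratio of a summit over its background. The deposited −log10 p and −log10 q rise with depth, and the deposited score was 10 times the −log10 p within 1. These authors' values were used to describe and rank peaks within a list. The 1 count of fold as it stands between treatments was not interpreted. Fold and −log10 p, relative to the mean of the sites, also served as alternative measures of level between treatments.

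The number of fragments was solved per summit: fold equals fragments plus 1, divided by background plus 1, and p is the upper tail of a Poisson distribution. All member peaks gave a whole number (tolerance 0.0005 on −log10 p, in proportion above 10). Peaks sharing at least 1 bp were merged, and the strongest peak of a library stands for a region. Levels, summit positions and widths were compared by two-sided exact permutation over 20 assignments. The members, lists and tests were chosen with earlier results of these data known. All 8 genes are named; beyond them only regions next to the limit of 10. The GTAAAC core, the fold counts between treatments and the omission of replicate 3 were chosen after seeing the data. Same-numbered libraries deviated together over shared regions (correlations 0.240, 0.340 and 0.440, all above 0.1), so numbers were taken as pairs; this comes from the data, not the labels. Alternatives were another measure, reference, distance, threshold and each library left out. The steps were tested on simulated data. Python 3.11.15, numpy 2.4.6, pandas 2.3.3, scipy 1.17.1 and matplotlib 3.10.9 were used. Promoter windows are RefSeq's on GRCh38.p14, and no coordinates were converted between builds.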

Additional observations from a re-analysis of the deposited data

How the results depend on the processing

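The number of sites with non-overlapping levels, 2 in the report, was 0 with the fold and 0 with −log10 p in place of fragments (each still relative to the mean of the 7 sites), 0 against the median of shared regions and 1 against the 100 highest regions; the cause was not tested. Leaving out 1 library gave 2 to 4 sites, with 4 without untreated 3, and 4 without both replicate 3 libraries. Groups of fewer libraries separate more readily by construction, and the shares of shared regions in these subsets were not computed. The CCNE2 difference was 0.0098 against the median of shared regions, and negative under the other 14 of 15 alternatives. These alternatives are not independent checks of the sign. The nearest peak and the pairs returned the main value of −0.18, and the other sites as reference only rescaled it. Leaving out a library reused the remaining ones. With the replicate number as a block, 3 sites moved one way in all pairs for level (OSER1 in addition, higher), 0 for summit position and 1 for width (CCNE2). The shares of shared regions that did so were not computed, so these counts were read no further.

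For summit position, leaving out 1 library gave 0 to 2 sites apart: 2 without insulin 2 (CCNE2, SNX29), 1 without untreated 1 (YIPF4) and 1 without untreated 2 (OSER1). Without both replicate 3 libraries 1 was apart (HBP1). For width the range was 0 to 1: 1 without insulin 2 (OSER1), 1 without untreated 1 (HBP1) and 1 without untreated 3 (CCNE2), and 1 without both replicate 3 libraries (CCNE2). With fewer libraries, groups separate more readily by construction, and the shares of shared regions in these subsets were not computed.

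Of the 7 sites with a peak in every library, 2 had it within 100 bp of the start. The lowest rank of any site, 21 by −log10 q, was 134 by fold. The median summit range was 2 to 3 bp with 1 library left out and 1 bp without both replicate 3 libraries, where it can only stay or fall. The forkhead letters matched 4 genes as GTAAAC and 2 as TGTTTAC. Fragment numbers of 265 to 1534 give a single log2 fragment number a counting SD of 0.09 down to 0.04.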
